A study of Drosophila melanogaster with 3 samples.

Results

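The 61 barcodes described here are all those with at least 200 genes counted in library 1, the first of 3 single-cell RNA libraries from the external chemosensory organs of 3rd instar Drosophila melanogaster larvae. They stand among 506 barcodes that met the same minimum in the 3 libraries and 1369 barcodes in all, with 214 in library 2 and 231 in library 3. Per the labels, fluorescently marked sense organs were picked by hand, dissociated with collagenase and elastase, and run with DisCo, a microfluidic method that pairs single cells with barcoded beads and is built for small samples. The labels give the 3 libraries as replicates 1, 2 and 3 of 1 group and name no genotype, driver line or treatment. The titles carry suffixes that the labels do not define (Sens40M, SensMix and SensSingle), and these may mark a difference in how the libraries were made.

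Library 1 was singled out because epidermal genes are high in it, so every difference from libraries 2 and 3 below is a description of these 3 libraries. No test of a condition is possible, since 1 library holds all 61 barcodes. Intervals are exact 95% intervals and cover counting error only.

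The larval epidermis is a single cell layer that secretes the cuticle. Grainy head (grh) is a transcription factor of epidermal and other barrier epithelia, kkv encodes the chitin synthase, and knk, Gasp and serp act on chitin outside the cell (an organizer of chitin, a chitin-binding protein and a chitin deacetylase). Cuticle is hardened and darkened with catecholamines, whose synthesis begins with tyrosine hydroxylase, the product of ple. Taste and olfactory sensilla also hold support cells of epidermal origin, which make the sensillum's cuticle and fill its lymph with secreted odorant-binding proteins.

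The barcodes carried 297 to 114289 counts each, with a median of 3337, against medians of 521.5 in library 2 and 513 in library 3. The summed counts were 497492 in library 1, 654062 in library 2 and 345621 in library 3. The deepest barcode of library 1 held 23.0% of its counts and the 3 deepest held 46.9%. The sparsest of the 61 had 203 genes counted, and the fullest barcode just under the minimum had 197. None of the 61 barcodes occurred among the barcodes of libraries 2 or 3 that met the minimum. Mitochondrial genes took 1.87% of counts in library 1, against 3.89% in library 2 and 1.69% in library 3. Cytosolic ribosomal protein genes took 38.4% in library 1, against 14.0% in library 2 and 21.0% in library 3.

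The bead barcodes of library 1 were not independent of one another, and the sequences show why the number of cells behind them is uncertain. Each is 12 bases long and is read from the bead, not from the fly genome. Of the 58 barcodes other than the 3 deepest, 30 lay exactly 4 edits (substitutions, insertions or deletions) from one of those 3, 9 lay at 5 edits and 0 at 1 to 3 edits. Of the same 58, only 2 lay within 4 edits of the 3 deepest barcodes of library 2, and 0 within 4 edits of the 3 deepest of library 3. The deepest barcodes and examples of their neighbours are printed 5′ to 3′, with the longest stretch shared with the family's deepest barcode in capitals.
family 1, deepest: AAATAGTCACGA
family 1, neighbour: cAATAGTCAgtg
family 1, neighbour: cttaAGTCACGA
family 2, deepest: AGATTCGGAGTG
family 2, neighbour: GATTCGaagttc
family 2, neighbour: tttTTCGGAGTa
family 3, deepest: CGAGCTTCCTAC
family 3, neighbour: CGAGCTatacca
family 3, neighbour: CGAGCTTgacag

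Family 1 had 18 barcodes with 50.3% of the counts, family 2 had 7 with 26.6%, family 3 had 8 with 13.7%, and 28 barcodes with 9.45% of the counts were in no family. The neighbours carried the profile of their own family. Across genes with at least 20 counts in both sums, log2 CPM of the deepest barcode and of its summed neighbours correlated at 0.985 in family 1 (918 genes), 0.979 in family 2 (461 genes) and 0.949 in family 3 (187 genes). CPM is the count of a gene per 1000000 counts of the same sum. Between families the deepest barcodes correlated at 0.696 (families 1 and 2, 319 genes), 0.884 (families 1 and 3, 304 genes) and 0.708 (families 2 and 3, 219 genes). These are correlations across genes of 1 library and serve as descriptions. Of the 23 barcodes with at least 5000 counts, 21 were in a family, the 3 deepest among them by definition.

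**Figure D1:**
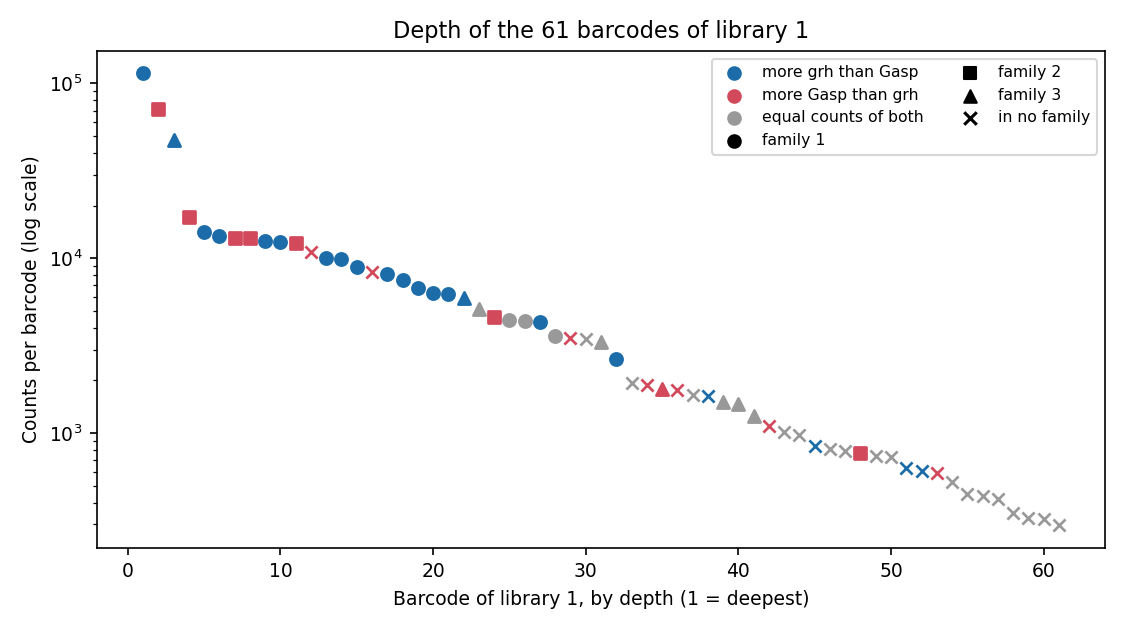
Counts per barcode (log scale) against depth rank for the 61 barcodes of library 1. Colour gives which of grh and Gasp had more counts and shape gives the family of similar barcode sequences; family 1 holds grh-leading and tied barcodes, family 2 Gasp-leading barcodes, and family 3 and the barcodes of no family hold all 3 kinds; most barcodes with equal counts are shallow.

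The 5 epidermal markers summed to 971 CPM in library 1 (483 counts, interval 886 to 1061), against 7.64 CPM in library 2 and 20.3 CPM in library 3. Gasp had 237 counts in library 1, against 4 in library 2 and 3 in library 3. The transcription factor grh had 163 counts in library 1, against 1 and 2. The chitin deacetylase gene serp had 40 counts and kkv 33 counts in library 1, and both had 0 in libraries 2 and 3. With only 10 counts in library 1, against 0 and 2, knk was too sparse to compare. Annotation places grh on chromosome arm 2R, knk, kkv and Gasp on 3R and serp on 3L; no coordinates are given because the sources used here name no genome build.

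Barcodes of library 1 are deeper, so shares of barcodes with a count were also taken after thinning each barcode to 395 counts. At least 1 grh count was found in 44.3% of the 61 barcodes, against 0.467% of 214 in library 2 and 0.866% of 231 in library 3. After thinning the shares were 14.0% of 57 barcodes in library 1, 0% of 153 in library 2 and 0% of 171 in library 3. No interval is given for the 14.0%, since the barcodes are not independent and grh helped to choose the library. Exact upper limits for the 0% are 2.38% of barcodes in library 2 and 2.13% in library 3. They take barcodes as independent, which was not checked in those libraries, and grh also helped to set these libraries apart. The thinned share for Gasp was 15.8% in library 1, against 0.654% in library 2 and 0.585% in library 3. For ple it was 29.8% in library 1, and 0% in libraries 2 and 3.

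The markers divided the barcodes into different sets. By the counts of the 2 genes, 21 barcodes had more grh than Gasp (grh-leading), 15 had more Gasp than grh (Gasp-leading) and 25 had equal counts, 23 of these with 0 of both. The assignment rested on a difference of 1 count in 9 barcodes, and 9 barcodes had counts of both genes. The split followed the barcode families. All 7 barcodes of family 2 were Gasp-leading; in family 1, 15 were grh-leading, 0 Gasp-leading and 3 tied. Family 3 held 2 grh-leading, 1 Gasp-leading and 5 tied barcodes, and 4 grh-leading, 7 Gasp-leading and 17 tied barcodes were in no family.

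Of the other markers only serp passed the 4-fold call in this split. The chitin synthase gene kkv did not, with 27 counts in the grh-leading barcodes and 4 in the Gasp-leading ones, or 91.5 against 24.7 CPM, a ratio of 3.71 (interval 1.29 to 14.6). The counts of knk, 8 in grh-leading and 1 in Gasp-leading barcodes, were too few to compare. The level of serp was lower in grh-leading barcodes, with 1 count in grh-leading and 39 in Gasp-leading barcodes, or 3.39 against 241 CPM. The 5 markers chose the library, so their high sum does not check its label as epidermis-rich. Lists outside that choice went both ways. The structural cuticle protein and septate junction lists had lower sums in library 1 than in both other libraries. By gene, the septate junction list had a median log2 ratio of 0.44 to the other libraries, beside -1.40 over all genes. The tanning and pigmentation list had a higher sum, 1506 CPM against 125 and 405 CPM. Most of that sum was 1 gene, ple, with 638 of the list's 749 counts in library 1. Ddc of the same list had 37 counts, against 44 and 130, and was not called. Family 3 had 0 counts of knk, kkv and serp in a sum of 68189 counts, where a gene as sparse as knk may be missed.

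Over all genes, 4639 had at least 20 counts in the 3 libraries and were compared by CPM, with a floor of 3 counts per library. In library 1, 674 (14.5%) were at least 4-fold higher than in both other libraries and 630 (13.6%) were at least 4-fold lower than in both. With median-of-ratios scaling the split was 820 higher and 487 lower, so the balance of the directions depends on the scaling. The median log2 ratio of library 1 to the geometric mean of libraries 2 and 3 was -1.40 over all compared genes. A larger share of cells of a type and more RNA per cell cannot be told apart in such sums. For 288 of the 674 genes both other libraries were under the floor. Genes enter by counts summed over the 3 libraries, so a gene counted only in library 1 is nearly bound to be called higher. Counts of calls per list below share this limit.

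Among the genes with the largest ratios were some that libraries 2 and 3 hardly held at all; counts are given as deposited, for sums of the sizes above. The tyrosine hydroxylase gene ple had 638 counts in library 1 and 0 in each of libraries 2 and 3, at least 148-fold higher against a floor of 3 counts per library. Of 5 tanning and pigmentation genes compared, 3 were at least 4-fold higher and 0 lower, beside 14.5% and 13.6% of all genes. The small heat shock gene Hsp27 had 282 counts in library 1, against 0 and 0, and Hsp23 had 128, against 0 and 0. CG43164 (nw) had 418 counts and CG15252 316 counts in library 1, and both had 0 elsewhere. The apoptosis gene rpr had 217 counts in library 1, against 4 in library 2 and 0 in library 3. The splicing factor gene RnpS1 had 243 counts, against 5 and 0. The zona pellucida domain gene qsm had 226 counts, against 1 and 2, and the lamin gene Lam had 149, against 5 and 0.

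Among transcription factors of epidermis and appendages, Dll, the selector of distal appendages, had 168 counts in library 1, against 11 in library 2 and 0 in library 3. Of 4 compared genes of the imaginal disc list, only Dll was called higher (14.5% over all genes) and 0 were lower. The others did not follow Dll: hth had 50 counts, against 85 and 50, en 0, against 37 and 0, and al 0, against 41 and 0. The epidermal denticle regulator ovo had 55 counts, against 2 and 1, and the coactivator gene tai had 161, against 42 and 2. In the epidermal transcription factor list 5 genes were compared; grh, which helped to choose the library, is one of them, and of the others ovo and tai were at least 4-fold higher and 0 lower, where 14.5% of all genes were higher. The ecdysone receptor gene EcR had 184 counts in library 1, against 15 and 1, and its early target gene Eip74EF had 62, against 2 and 3. Of 9 ecdysone response genes 4 were at least 4-fold higher (14.5% over all genes) and 2 at least 4-fold lower (13.6% over all genes). The 2 lower genes were Eip75B with 15 counts, against 141 and 52, and the lactate dehydrogenase gene ImpL3 with 6, against 1962 and 504.

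Signalling genes of epithelia followed. Wnt6, a secreted ligand, had 111 counts in library 1, against 0 in library 2 and 4 in library 3, and its receptor family member fz had 119, against 32 and 1. The protocadherin gene ft had 113 counts, against 0 and 14, and the kinase gene fj, whose product modifies Ft, had 46, against 0 and 0. The receptor gene fz2 was lower, with 6 counts in library 1, against 270 and 1340. Of 8 compared Wnt and planar polarity genes 4 were at least 4-fold higher and 1 lower, beside 14.5% and 13.6% of all genes.

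The 6 cell cycle genes with enough counts to compare were all called higher in library 1. The sum over the 13 listed genes in the tables was 832 CPM in library 1 (interval 754 to 916), against 22.9 and 17.4 CPM. The 6 were at least 4-fold higher, where 14.5% of all genes were, with a median log2 ratio of 3.79. The other 7 genes had 1 to 16 counts in library 1 and were not compared; Mcm2 had 1 count, against 0 and 2, and Mcm5 had 3, against 3 and 0. The mitotic kinase gene Cdk1 had 106 counts in library 1, against 0 and 2, and the mitotic phosphatase gene stg had 95, against 0 and 0. Both ribonucleotide reductase genes, RnrL and RnrS, had 0 counts in libraries 2 and 3. HmgD, a chromatin protein gene, had 1280 counts in library 1, against 62 and 2.

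Septate junctions seal epithelia and the sheath of glia alike. Of 20 genes compared 6 were at least 4-fold higher in library 1 and 1 lower, beside 14.5% and 13.6% of all genes, and the sum was 3132 CPM, against 8192 and 4595 CPM. The adhesion gene Fas3 had 289 counts in library 1, against 39 and 1, and the claudin gene sinu had 119, against 2 and 0. The gene of the sodium pump alpha subunit, Atpalpha, which neurons use as well, had 91 counts in library 1, against 2006 and 1079. Of the 18 structural cuticle protein genes compared, 2 were higher (Cpr56F with 193 counts, against 0 and 1; TwdlV with 48, against 0 and 0), a share no larger than the 14.5% over all genes, and 7 were lower (13.6% over all genes). Those lower included Lcp65Ac with 2 counts, against 390 and 1081, and Lcp4 with 0, against 128 and 744. The list summed to 517 CPM in library 1, against 1426 and 9227 CPM.

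**Figure D2:**
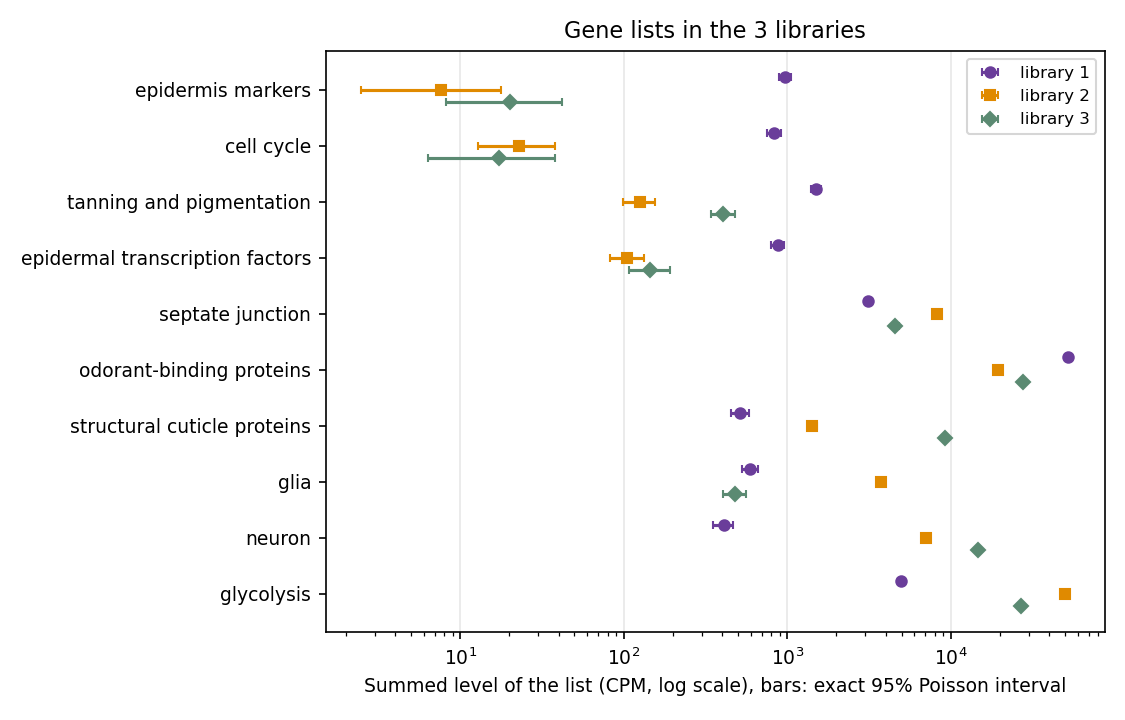
Summed level of 10 gene lists (CPM, log scale) in the kept barcodes of libraries 1, 2 and 3, with exact 95% Poisson intervals. Library 1 lies above both others for the epidermal markers, cell cycle, tanning and epidermal transcription factor lists and below both for the neuron, septate junction, structural cuticle protein and glycolysis lists. The epidermal markers chose the library, and 1 of them, grh, gives 163 of the 434 library 1 counts of the epidermal transcription factor list.

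Neuronal and glycolytic genes were low in library 1. The neuron list summed to 408 CPM, against 7022 and 14689.5 CPM, with 9 of 12 compared genes at least 4-fold lower (13.6% over all genes), 0 higher and a median log2 ratio of -5.15. Of the list's 203 counts in library 1, 132 were from Syx1A. The sodium pump beta subunit gene nrv3 had 11 counts in library 1, against 2030 and 2277, and the microtubule-binding protein gene futsch had 3, against 605 and 349. The synaptic gene Rim had 0 counts in library 1, against 34 and 262, and the ionotropic coreceptor gene Ir25a had 0, against 42 and 34. The olfactory coreceptor gene Orco had 0 counts in library 1, against 395 in library 2 and likewise 0 in library 3. In glycolysis 8 of 12 genes were at least 4-fold lower, beside the same 13.6%, with 4955 CPM in library 1, against 50144 and 27001 CPM, and Pglym78 had 0 counts, against 2921 and 432. 

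The odorant-binding protein genes went in both directions, with 3 of 13 compared genes at least 4-fold higher in library 1 and 5 lower, beside 14.5% and 13.6% of all genes. Obp28a had 25569 counts in library 1, against 1422 in library 2 and 4329 in library 3. As a level this was 51396 CPM, against 2174 and 12525 CPM, 4.10-fold above library 3 (interval 3.97 to 4.24). Family 2 gave 21334 of the library 1 counts of Obp28a. Families 1 and 3 stood at 6027 and 10178 CPM, below library 3, and the barcodes in no family at 43266.5 CPM. Obp56h had 1 count in library 1, against 3570 and 1993, and Obp49a had 14, against 3003 and 1455. Obp28a was thus the source of 25569 of the 26121 odorant-binding protein counts of library 1.

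Markers of other cell types were checked over each whole list. Glial genes summed to 595 CPM in library 1, against 3759.6 and 477 CPM, with 5 of 8 genes counted and repo, Eaat1 and loco at 0. Muscle genes summed to 876 CPM, against 1164 and 2850 CPM, with 12 of 13 counted and Mlp60A at 0, and 310 of the 436 counts in library 1 were from Tm1. Genes of sensillum support cells summed to 60.3 CPM, against 105 and 92.6 CPM, with 5 of 6 counted and spdo at 0. Tracheal genes summed to 263 CPM, against 59.6 and 182 CPM, with 3 of 4 counted and btl at 0; most of that came from pio with 124 counts. Hemocyte genes summed to 92.5 CPM, against 78.0 and 124 CPM, with Hml and Pxn at 0, and 44 of the 46 counts were from the scavenger receptor gene crq. No count came from the 4 fat body, 3 oenocyte or 1 salivary gland genes in the tables. Within library 1, neuron and glia genes were densest outside the families, at 1617 and 2872 CPM in the 28 other barcodes, where mitochondrial genes took 4.37% of counts. The part these cell types play in the sums was not tested.

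The grh-leading and Gasp-leading barcodes differed across many genes. Their sums held 295059 and 162127 counts, and 1971 genes had at least 20 counts in them apart from grh and Gasp, which made the split. Of these 625 (31.7%) were at least 4-fold higher in grh-leading barcodes and 403 (20.4%) at least 4-fold higher in Gasp-leading barcodes, and the median log2 ratio over the 1971 was 1.00. Ribosomal protein genes took 44.3% of counts in grh-leading barcodes, against 27.5% in Gasp-leading barcodes, and mitochondrial genes 1.34% against 2.68%. Family 2 gave 132246 of the 162127 Gasp-leading counts, and 15 of the 21 grh-leading barcodes were of family 1, so the families cannot be told apart from the split.

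Obp28a led the Gasp-leading side. This odorant-binding protein gene had 2034 counts in grh-leading barcodes and 22793 in Gasp-leading barcodes, or 6894 against 140587 CPM, which is 20.4-fold higher in Gasp-leading barcodes (interval 19.5 to 21.3). CG13721 had 2389 CPM in grh-leading and 42399 CPM in Gasp-leading barcodes, 17.7-fold higher in the Gasp-leading ones. PebIII (EbpIII), a member of the chemosensory protein family, had 1634 CPM against 20200.2 CPM. Obp47b had 10 counts against 176, and Obp56c 9 against 157. Of the 5 odorant-binding protein genes compared 4 were at least 4-fold higher in Gasp-leading barcodes (20.4% over all genes), and Obp83g was higher in grh-leading ones, with 43 counts against 5. Obp47b and Obp56c reached the minimum of 20 counts through the Gasp-leading sum and Obp83g through the grh-leading sum, which favours these calls.

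The same side held the tanning genes. The 4 compared members (ple, Ddc, yellow-c and laccase2) were all at least 4-fold higher in Gasp-leading barcodes (20.4% over all genes). Ddc, yellow-c and laccase2 reached the minimum of 20 counts mostly through the Gasp-leading sum, which favours the call. The listed genes y and t were too sparse to compare. The tyrosine hydroxylase gene ple had 71 counts in grh-leading and 552 in Gasp-leading barcodes, or 241 against 3405 CPM. Ddc, whose product makes dopamine from the next intermediate, had 0 counts against 35, and laccase2 (stw), a phenol oxidase gene of cuticle, had 4 against 17. A chitin-binding gene of the obstructor family, obst-E, had 6 counts against 62. Among the families, Gasp, serp, obst-E and these tanning genes were all highest in family 2, as Obp28a was.

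The largest ratios on that side belonged to other genes. Trehalase (Treh) had 4 counts in grh-leading and 125 in Gasp-leading barcodes, a 56.9-fold higher level in Gasp-leading ones (interval 21.7 to 212). Glycogen phosphorylase (GlyP) had 6 counts against 157 and the lipoprotein receptor gene mgl 4 against 122. CG2781 (Elovl7), of the fatty acid elongase family, had 3 against 80, and Thiolase (Mtpbeta), of mitochondrial fatty acid oxidation, had 2 against 54. In glycolysis 4 of 10 genes were at least 4-fold higher in Gasp-leading barcodes (20.4% over all genes) and 1 in grh-leading ones (31.7% over all genes). The aldolase gene Ald had 67 counts against 358. The adherens junction genes went both ways. The E-cadherin gene shg had 5 counts in grh-leading and 51 in Gasp-leading barcodes, while the catenin genes arm and alpha-Cat were at least 4-fold higher in grh-leading ones, with 49 counts against 3 and 28 against 2.

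Cell cycle genes were on the grh-leading side. Of 6 cell cycle genes 5 were at least 4-fold higher there (31.7% over all genes), and the sixth, PCNA, had 50 counts in grh-leading and 7 in Gasp-leading barcodes, a ratio of 3.92. The list summed to 1183 CPM in grh-leading barcodes, against 216 CPM in Gasp-leading ones. Of its counts 349 were in grh-leading and 35 in Gasp-leading barcodes, so genes mostly entered through the grh-leading side, which favours such calls. Cdk1 had 94 counts against 5 and CycE, a cyclin of DNA synthesis entry, had 38 against 0. The chromatin protein gene HmgD had 1066 counts against 105, or 3613 against 648 CPM, and Df31, a histone chaperone gene, had 1943 counts against 171. The poly(ADP-ribose) polymerase gene Parp had 296 counts against 30. The nucleoside diphosphate kinase gene awd had 5457 against 1067 CPM.

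Septate junction genes were called in 1 direction. Of 14 compared, 6 were at least 4-fold higher in grh-leading barcodes (Nrx-IV, crok, bou, vari, Gli and Fas3) and 0 in Gasp-leading barcodes, with a median log2 ratio of 1.49, beside 1.00 and 31.7% called over all compared genes. Of the list's counts 1143 were in grh-leading and 234 in Gasp-leading barcodes. Sparse genes thus mostly entered through the grh-leading side, which favours calls in that direction. Fas3 had 246 counts against 18 and Nrx-IV 63 against 5. The chitin supply genes Gfat1 and CG1969 (Gnpnat), which lead to the sugar that chitin synthase uses, had 81 against 4 and 70 against 6. The Notch target gene E(spl)m3-HLH had 117 against 4 counts. The highest ratios were those of nahoda with 157 counts against 1, Rpn13 with 188 against 4 and jim with 130 against 3.

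Several genes that set library 1 apart did not divide by the split. Dll had 285 CPM in grh-leading and 469 CPM in Gasp-leading barcodes. Wnt6 had 220.3 against 253 CPM and EcR 295 against 444 CPM. The zona pellucida domain gene qsm had 105 counts in each. The noncoding RNA CR34335 was counted in all 61 barcodes, at 9289.7 CPM in grh-leading and 7691.5 CPM in Gasp-leading ones.

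**Figure D3:**
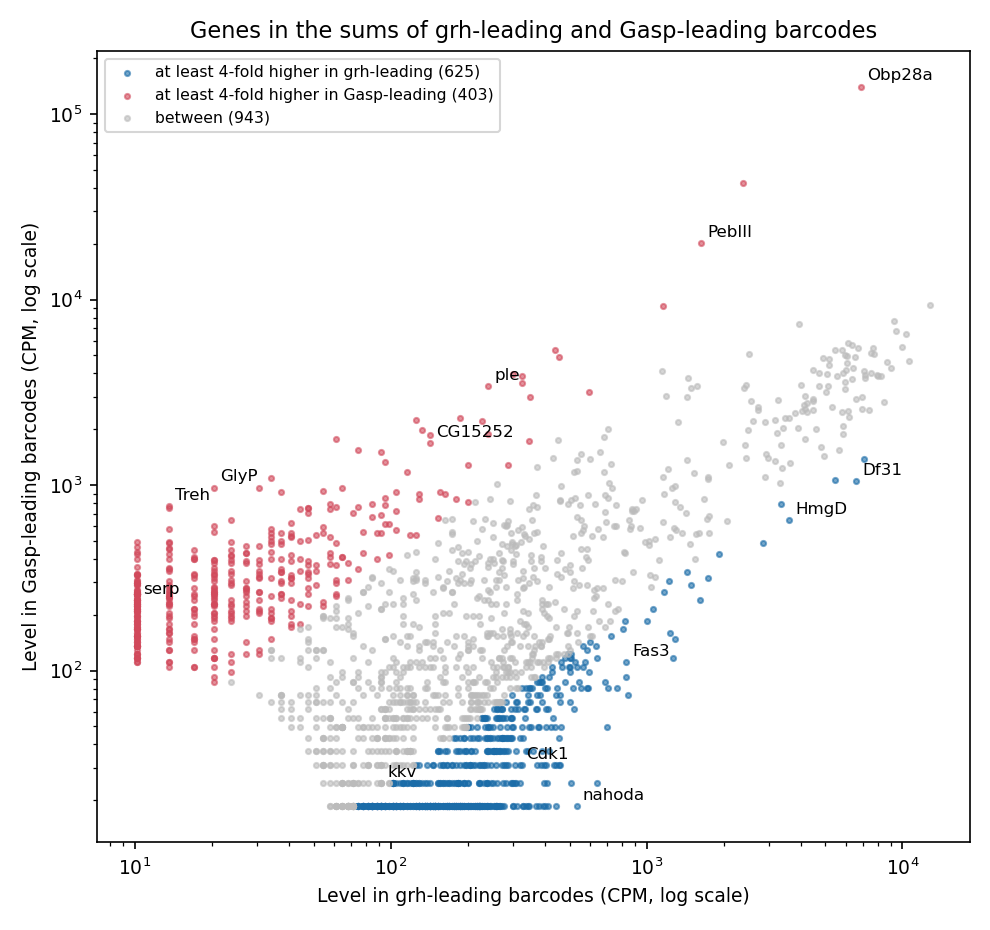
Level of each of 1971 genes in the summed grh-leading barcodes (x axis, CPM, log scale) and the summed Gasp-leading barcodes (y axis, CPM, log scale); values under 3 counts are drawn at that floor. Obp28a, PebIII and ple lie far above the diagonal crowd, and HmgD, Df31, Fas3 and Cdk1 below it.

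Ranges over single barcodes describe the same division. Barcodes of a family are not independent, so these ranges are no replicate measurements. Among grh-leading barcodes HmgD ran from 1189 to 6579 CPM with a median of 3564, and among Gasp-leading barcodes from 0 to 2287 CPM with a median of 644. For ple the grh-leading barcodes ran from 0 to 405 CPM and the Gasp-leading ones from 0 to 5455 CPM, with medians of 0 and 3026. The sets overlapped for both genes. By family the ranges separated for Obp28a, which ran from 147 to 18212 CPM in family 1, from 129815 to 243839 CPM in family 2 and from 299.7 to 27283 CPM in family 3. All barcodes of family 2 thus lay above those of families 1 and 3, but the number of cells behind them is uncertain. HmgD ran from 2965 to 4709 CPM in family 1, a far narrower spread between barcodes than that of Obp28a.

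Genes that led family 2 were counted in family 1 at a small share of their family 2 level. Obp28a in family 1 was 3.74% of its level in family 2, CG13721 4.14%, PebIII 6.03%, ple 5.49%, CG15252 5.56%, GstE1 4.64%, Gasp 2.40% and serp 1.43%. In family 3 the same genes were at 4.90 to 10.2% of their family 2 level, apart from serp at 0. Genes of family 1 were less even in family 2, with grh at 5.40%, HmgD at 17.4%, dUTPase at 35.1% and kkv at 26.1% of the family 1 level. The part of free RNA in these low levels was not tested.

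**Figure D4:**
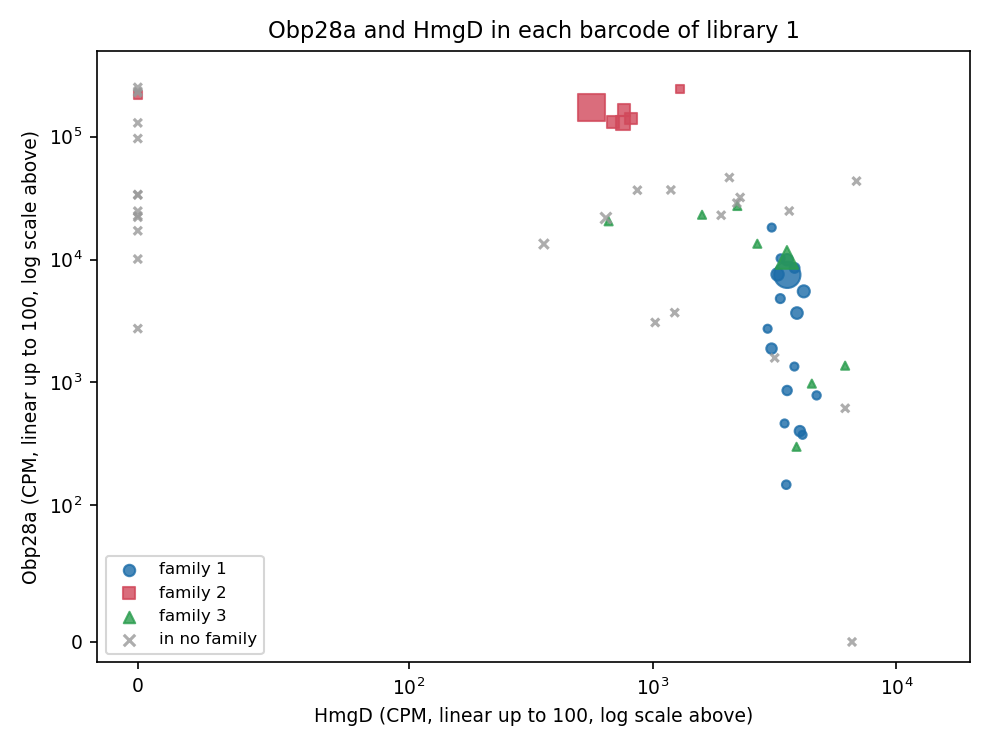
Level of Obp28a (y axis) against HmgD (x axis) in each of the 61 barcodes of library 1, in CPM on axes that are linear up to 100 and log above; larger points have more counts. Family 2 sits at the top above 129815 CPM of Obp28a, family 1 forms a narrow column between 2965 and 4709 CPM of HmgD, and the barcodes in no family spread over both.

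Family 3 was close to family 1 in some genes and far from it in others, and its leading genes were picked after their values were seen. HmgD in family 3 was at 96.5% of its family 1 level and Fas3 at 120%, while grh was at 23.6%, Parp at 22.4% and Cdk1 at 3.74%. The cell cycle list summed to 1308 CPM in family 1 and 630.6 CPM in family 3. The cuticle protein gene Cpr56F had 84.0 CPM in family 1, 197 CPM in family 2 and 2009 CPM in family 3, and its level was close in the deepest barcode (1947 CPM) and in its neighbours (2155 CPM). The claudin-like septate junction gene pck had 40.0, 68.1 and 1144 CPM in families 1, 2 and 3. The transcription elongation gene Rtf1 had 0 counts in families 1 and 2 and 895 CPM in family 3. The epidermal regulator ovo had 20.0, 75.6 and 587 CPM, and ft 148, 151 and 704 CPM. The apoptosis gene rpr was lowest there, at 664, 325 and 29.3 CPM.

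**Figure D5:**
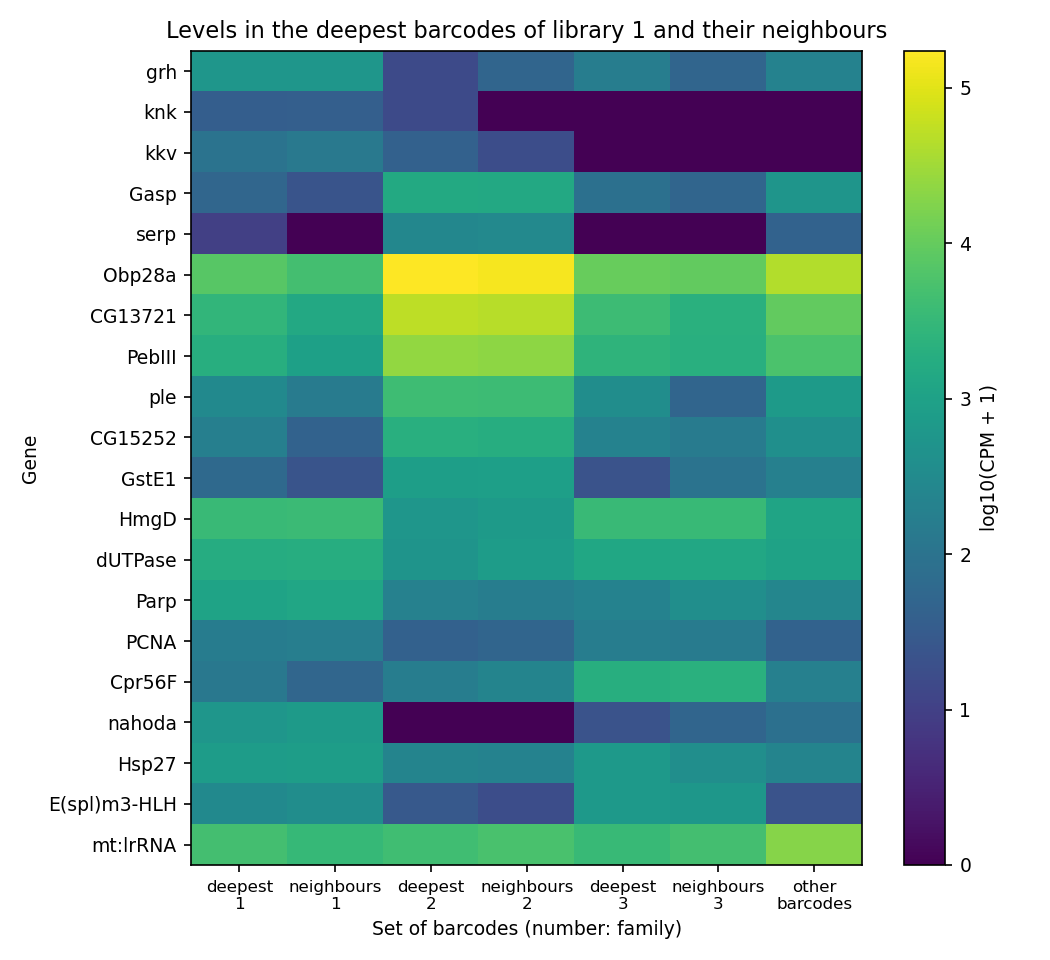
Heat map of log10(CPM + 1) for 20 genes in the deepest barcode of each family, in its summed neighbours and in the summed barcodes of no family of library 1. Each deepest barcode and its neighbours share a pattern: Obp28a, ple and Gasp are high in family 2, grh, HmgD and nahoda in family 1, and Cpr56F in family 3.

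The 25 tied barcodes held 40306 counts with a median of 975. Their cell cycle sum was 744 CPM, their Obp28a level 18409 CPM and their epidermal marker sum 174 CPM (interval 69.8 to 358). The neuron list reached 893 CPM in them from 36 counts (interval 626 to 1237). It stood at 268 CPM in grh-leading (interval 212 to 334) and 543 CPM in Gasp-leading barcodes (interval 435 to 669).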

How the data were processed

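The authors deposited 1 table of whole-number counts per gene and barcode for each of 3 libraries; per the submitters' processing notes STAR 2.7.0 and Seurat 3.1.2 were used, and per the labels' protocols cDNA was amplified for 21 cycles. The build, the annotation and whether molecular identifiers were collapsed are not given in the sources used here, so intervals cover counting error only. The depth of each library is its summed count, given in the report.

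Barcodes with at least 200 genes were kept and summed, with CPM taken over all genes. The members, gene lists and split were chosen with earlier results of these data known. Genes were named by rule: the markers, the 15 highest in library 1, the largest ratios, and up to 6 members of each list; genes outside it (HmgD, dUTPase, Parp, GstE1, E(spl)m3-HLH and list members with calls) were chosen after their values were seen. Genes with at least 20 counts were compared; a call needs a 4-fold ratio with a floor of 3 counts per sum. No test was run, and no doublet caller. Of 10457 symbols 8150 were current and 2174 were older synonyms of 1 gene in FlyBase names; 133 did not match. Edit distances and sums used python 3.11.15, numpy 2.4.6 and pandas 2.3.3, and intervals scipy 1.17.1. The calls were checked on simulated counts. Alternatives were other scalings (edgeR's TMM and DESeq2's median of ratios), floors, minimum genes, left-out libraries, merged neighbours, and families left out.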

Additional observations from a re-analysis of the deposited data

Results flagged for a closer look

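The barcodes of library 1 with fewer than 200 genes, which the comparisons do not use, also carried epidermal markers. In 234 such barcodes 9 of 10526 counts came from the 5 markers, or 855 CPM (interval 391 to 1623), above the 285 CPM that 3 counts would give. Barcodes under the same minimum had 4 marker counts in library 2, or 113 CPM (interval 30.8 to 289.7), and 1 in library 3, under the 126 CPM that 3 counts would give there (interval 1.06 to 234). The level in library 1 lies close to the 971 CPM of the 61 barcodes, and Obp28a had 45126 CPM there, beside 51396 CPM in the 61.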

How the results depend on the processing

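Of 75 recomputed values 57 stayed within their spread or within 1.5 times the reported count and 18 moved; none was reversed. The epidermal marker sum (971 CPM) was 1624 CPM without mitochondrial and ribosomal protein genes, 1135 CPM with TMM, 1217 CPM with median of ratios and 787 CPM without the barcodes of the 3 families, an alternative chosen after seeing the data. With a floor of 10 counts, 378 genes were higher and 331 lower in library 1, and 225 were higher in grh-leading barcodes. Leaving out 1 other library gave 836 to 1246 genes higher (without replicate 3 and without replicate 2) and 1042 to 2089 lower (without replicate 2 and without replicate 3); fewer libraries to pass make these counts larger by construction. With neighbours merged into their deepest barcode, 6 were grh-leading and 8 Gasp-leading, in place of 21 and 15. Without the families 142 genes were higher and 103 lower in library 1, 4 barcodes were grh-leading and 7 Gasp-leading, and 19 and 14 genes were at least 4-fold higher in grh-leading and Gasp-leading barcodes; fewer counts remain there. TMM shifted all log2 ratios by 0.34 to libraries 2 and 3 and by -0.19 within library 1, and median of ratios by 0.71, 0.27 and -0.22. No paired analysis was possible because the labels give 1 group. Genes under 20 counts, knk among them, were not compared.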
